A study of Homo sapiens with 6 samples.

Results

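The genes described here code for the coats, small GTPases and cargo receptors that carry proteins between the endoplasmic reticulum (ER) and the Golgi apparatus. They were taken from a list of 43 names, which stand for 42 genes because SEC12 is another name of PREB, and were matched by symbol to the Ensembl genes of 6 RNA-seq gene count files. SEC22B was not analysed here, because no row could be matched to it. The other 41 genes had a count row among the 57905 genes of the files, and all 41 passed the filter on low counts that left 14398 genes in the test.

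The RNA came from NCI-H929 (H929), a human multiple myeloma cell line grown in culture. In each reaction 5 μg of its total RNA was held at 37 °C for 1 h, either together with 2 μg of recombinant human IRE1 covering residues 467 to 977 (3 IRE1-treated samples) or in the same buffer without the enzyme (3 controls). Heating at 95 °C for 5 min ended the reaction, and poly(A)-containing RNA was then purified and sequenced. IRE1 therefore met purified RNA in a tube and not the transcripts of a living cell, and the protein used holds its cytoplasmic part only. The study used these samples to look for mRNAs that IRE1 cuts, and the comparison of IRE1-treated with control samples below gives, for each transport gene, how its count differed after exposure to the enzyme.

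Secretory proteins leave the ER in vesicles shaped by the COPII coat. The GTPase SAR1, loaded with GTP by the ER protein PREB, recruits the inner coat of SEC23 and SEC24, and SEC13 and SEC31 then build the outer cage at exit sites organised by SEC16A and TFG. The COPI coat works in the opposite direction and within the Golgi: ARF GTPases, activated by GBF1, bring the coatomer complex to Golgi membranes. Receptors such as LMAN1 and SURF4 select cargo for COPII vesicles, p24 proteins (TMED genes) cycle with both coats, and KDEL receptors return escaped ER proteins in COPI vesicles. Plasma cells, from which myeloma arises, secrete immunoglobulin in large amounts through this route. IRE1 is an ER stress sensor whose RNase domain is known to cut RNA at CUGCAG within a hairpin loop, as in XBP1 mRNA.

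The libraries held 19615715 to 25678499 counts on genes. These counts were scaled with edgeR's TMM factors, 1.02 to 1.03 in the controls and 0.947 to 0.996 in the IRE1-treated libraries, and are given below as normalized counts, at the depth of the mean library. IRE1-treated replicate 1 stood farthest from the other libraries. A chi-square comparison of libraries within a group gave 2.2 to 3.05 per gene among controls and 3.4 to 11.1 among IRE1-treated libraries, and thus found no copies. The 9 plasma cell markers summed to 250364 to 255446 normalized counts in the controls and 250468 to 267895 in the IRE1-treated libraries. The 3 B cell markers summed to 45.2 to 54 and 47.5 to 50.6, the 3 monocyte markers to 22.6 to 41.4 and 20.4 to 32.7, the 3 T cell markers to 899 to 940.4 and 947 to 1178, and the 3 epithelial markers to 1221 to 1309.8 and 1374 to 1568. The T cell sum was that of CD3E, since CD3D and CD2 stayed under 10 counts in every library, as did EPCAM among the epithelial markers. KRT18, which held most of the epithelial sum, was higher after IRE1 (log2 fold change 0.25, edgeR adjusted p = 0.00787). That call was lost without control replicate 1 or IRE1-treated replicate 2, and with the length and GC trend taken out (0.183). Of the plasma cell markers, TNFRSF17 (0.25, edgeR adjusted p = 0.00134) and MZB1 (0.31, 0.00401) were higher after IRE1. PRDM1 (-0.25, edgeR adjusted p = 0.00193) was lower, and the other 6 did not pass. With the length and GC trend taken out, the calls of TNFRSF17 (0.04, edgeR adjusted p = 0.47), MZB1 (0.12, 0.117) and PRDM1 (-0.12, 0.0634) were lost. The study reported PRDM1 and IRF4 mRNAs as IRE1 targets, and XBP1 mRNA is its known substrate. Counts of these markers after IRE1 are thus not a measure of cell identity alone. The 2 erythroid markers stayed under 10 counts in every library, and the 2 fibroblast markers summed to at most 14.4. BLOC1S1, a known IRE1 substrate, fell from 612 ± 33.9 normalized counts (SD, n = 3) in the controls to 239 ± 33 (SD, n = 3), a log2 fold change of -1.37 (edgeR adjusted p = 1.25e-06). Over the whole gene, XBP1 did not pass the threshold, at a log2 fold change of -0.09 (edgeR adjusted p = 0.143). XBP1 was past it without IRE1-treated replicate 1 (-0.11, edgeR adjusted p = 0.0277) and in the fit with the length and GC trend taken out (-0.21, 0.000538). In the study's exon data, XBP1 had fewer reads upstream of its cut sites after IRE1 and similar reads downstream. A count over the whole gene can thus miss a transcript that was cut, also among the genes below.

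In the changed members, the CUGCAG sites in a predicted hairpin loop are printed with 12 bases on each side. They are given as RNA from 5′ to 3′, with CUGCAG in capitals, and those of the members were not tested as places of cutting. The transcripts are the canonical ones of GENCODE release 44 on GRCh37, and the coordinates are those of the 6 capital bases in that build. The stretch from 15 bases before to 15 bases after CUGCAG was folded, and a site counted where the third of its bases fell unpaired in a hairpin loop (5 to 11 bases, with 3 pairs or more below it). The sequence was searched on the transcript strand only. The site of XBP1 (coding sequence, minus strand, read from its longest transcript) comes first as the known example, followed by those of the members with lower counts after IRE1 treatment (SEC23A, SEC16A and LMAN1) and of the members with higher counts (SAR1A and TMED9). The site of SEC23B, the paralog of SEC23A that did not pass the threshold, closes the set.
XBP1 chr22:29192112-29192117: cuacgugcaccuCUGCAGcaggugcaggcc
SEC23A chr14:39572286-39572291: cugcgacgggucCUGCAGggggacagugag
SEC16A chr9:139371438-139371443: ccucagccugguCUGCAGaugccaggacag
SEC16A chr9:139369838-139369843: uccuucuggcccCUGCAGccccggcgcuuu
LMAN1 chr18:56997858-56997863: aaaggccugggcCUGCAGuccuuucaucuu
SAR1A chr10:71911326-71911331: ucgugucacauaCUGCAGgugcaucaguua
SAR1A chr10:71908483-71908488: gaacauaggucaCUGCAGccuugaccuccu
TMED9 chr5:177022334-177022339: uggugguccauuCUGCAGacccucauccuc
TMED9 chr5:177023033-177023038: uugggguggggcCUGCAGagucuuaguuac
SEC23B chr20:18505161-18505166: cucaaagaguccCUGCAGaugucccugagu
SEC23A carried its site in exon 1 of 20, in the 5′ UTR. SEC16A carried both sites in exon 3 of 32, within the coding sequence, and SEC23B carried its site in the coding sequence of exon 5. LMAN1 had its site in the 3′ UTR, in exon 13 of 13, and both sites of SAR1A lay in the 3′ UTR as well. Of the TMED9 sites, the first lay in coding sequence and the other in the 3′ UTR, both in exon 5 of 5. SEC23A, SEC16A, LMAN1 and SAR1A are on the minus strand, and TMED9 and SEC23B on the plus strand. With 25 bases folded on each side, a setting chosen for these transcripts after the data were seen, the sites of XBP1, LMAN1 and SEC23B and the first site of SEC16A kept the hairpin loop. The sites of SEC23A, SAR1A and TMED9 and the other site of SEC16A did not.

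CUGCAG in a predicted hairpin loop was found in these genes at a share near that of all genes. With the longest transcript of each gene, 14 of the 41 members (34.1%) held such a site, beside 36.9% of the 12225 tested protein-coding genes. It was found in 3 of the 10 members with lower counts (SEC16A, LMAN1 and MCFD2), in 4 of the 9 with higher counts (SAR1A, TMED3, TMED9 and LMAN2) and in 7 of the other 22. With the canonical transcripts used for the printed sites, 12 members (29.3%) held one, beside 35.4% of protein-coding genes, and these included 3 with lower counts (SEC23A, SEC16A and LMAN1) and 2 with higher counts (SAR1A and TMED9). SEC24A, SEC24B, SEC24D, COPA, ARCN1 and TMED5, all lower after treatment, had no such site in either transcript. A site found in this way is a match of letters and a predicted fold, and was not tested as a place of cutting.

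In the control RNA, which was incubated and heated without the enzyme, most of these genes were well expressed. Levels are given as RPKM, counts scaled by TMM library size and by the kilobases in the union of a gene's exons, as mean ± SD of the 3 controls. In bulk RNA a level does not tell more cells with a transcript from more transcript per cell. KDELR1, the KDEL receptor that retrieves ER chaperones, was the highest at 529 ± 17.5 RPKM, above 99.4% of the tested protein-coding genes. It was followed by ARF1 (184 ± 3.35), the GTPase that recruits coatomer, and by SURF4 (163 ± 0.379), a receptor for soluble cargo. The coatomer subunits COPE (120.1 ± 3.5) and ARCN1 (116 ± 1.36) came next. LMAN1 (75.4 ± 3) and PREB (75.1 ± 1.17) did not differ beyond their spread on this scale. The lowest were KDELR3 (1.19 ± 0.133) and TMED7 (1.96 ± 0.369). KDELR3, the third KDEL receptor, had 35 to 61 reads per library, and its normalized counts were 51.5, 44.3 and 55.5 in control replicates 1, 2 and 3 and 41.9, 42.2 and 47.5 in IRE1-treated replicates 1, 2 and 3. KDELR3 was thus low in every library, its groups overlapped, and its log2 fold change was -0.19 with a standard error of 0.19. Of the 41 members, 37 lay above the median level of the tested protein-coding genes.

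**Figure D1:**
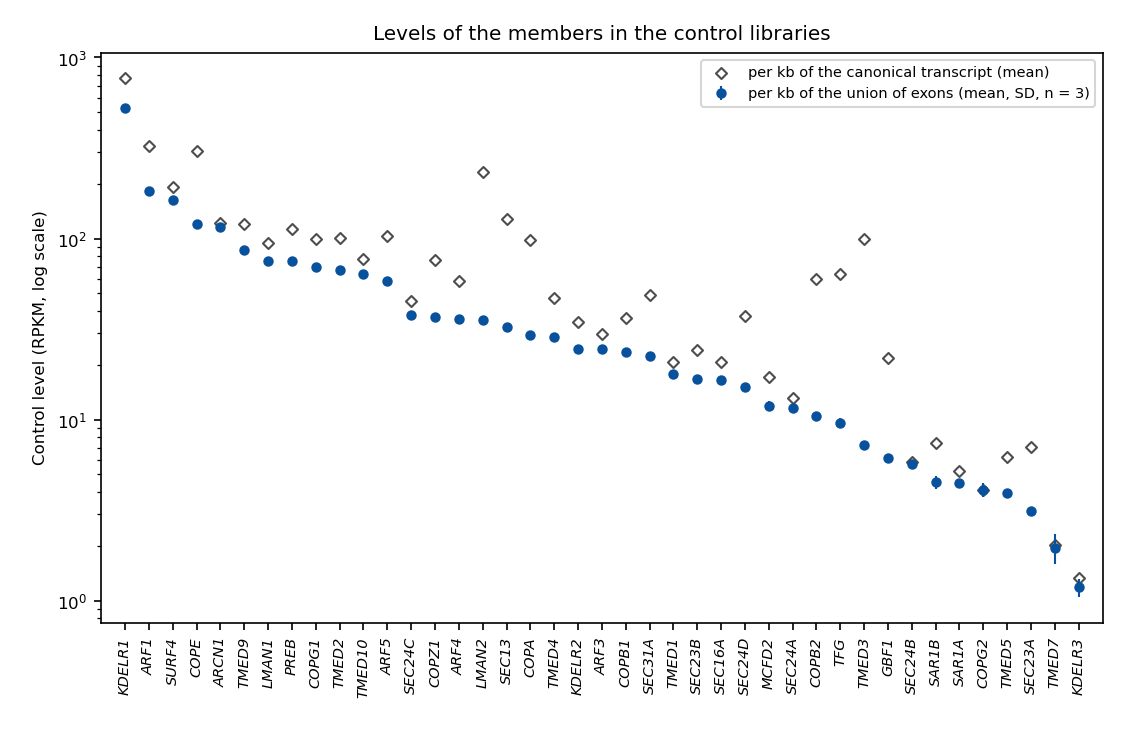
Level of each of the 41 genes in the 3 control libraries, in RPKM on a log axis, ordered by the level per kilobase of all exons (filled points, mean with SD, n = 3), with the mean per kilobase of the canonical transcript as open diamonds. KDELR1 stands highest and KDELR3 lowest on both scales, while TMED3, TFG, COPB2 and LMAN2 move up by a large factor with the canonical length.

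The choice of length moved the level of 21 members by more than 1.5 times. With the canonical transcript in place of all exons, TMED3 went from 7.25 to 99.2 RPKM, LMAN2 from 35.5 to 234, TFG from 9.56 to 63.7 and COPB2 from 10.4 to 59.5. These 4 genes have annotated exons far longer than their main transcript. COPE, from 120.1 to 305, then stood above SURF4 (192) and far above ARCN1 (122). LMAN1 and PREB then lay apart, at 94.9 ± 3.78 and 113 ± 1.76, so the order of neighbouring genes depends on the length used. COPG2, the less abundant gamma subunit of coatomer at 4.1 ± 0.361 RPKM, had only a transcript of 1722 bases in the annotation used, so its level is uncertain.

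Between IRE1-treated and control samples, the transport genes split nearly evenly. Of the 41, 10 had lower and 9 had higher counts in the IRE1-treated samples at an adjusted p under 0.05, and 22 did not pass (quasi-likelihood test of edgeR, p-values adjusted by the Benjamini-Hochberg method over all 14398 genes). This is 24.4% lower and 22% higher, beside a background of 12.4% lower, 10.3% higher and 22.7% in either direction over all tested genes. Over the tested protein-coding genes it was 14% lower and 11.3% higher. Both backgrounds hold genes of all levels, while 37 of the members lay above the median level of those protein-coding genes. A background of genes at like levels was not computed. The lower members were SEC23A, SEC24A, SEC24B, SEC24D, SEC16A, COPA, ARCN1, TMED5, LMAN1 and MCFD2. The higher members were SAR1A, SEC13, COPE, ARF5, TMED3, TMED9, LMAN2, KDELR1 and KDELR2. The median log2 fold change of the 41 was -0.00038, beside 0.00447 over all tested genes. All 3 IRE1-treated libraries lay below all 3 controls for 14 members and above them for 12, where the background of such separations was 20% and 19.1% of tested genes. The changes were moderate: they ran from a log2 fold change of -0.52 for SEC24A to 0.26 for COPE. With library size in place of TMM, which shifted the median of all tested genes to -0.07, 15 members were lower and 4 higher, beside 18% lower and 4.74% higher over all tested genes in that fit. The 4 were COPE, ARF5, TMED3 and LMAN2. Counts scaled in either way are relative to the other genes of a library. A higher value is thus a larger share and does not show that RNA was gained in the tube.

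**Figure D2:**
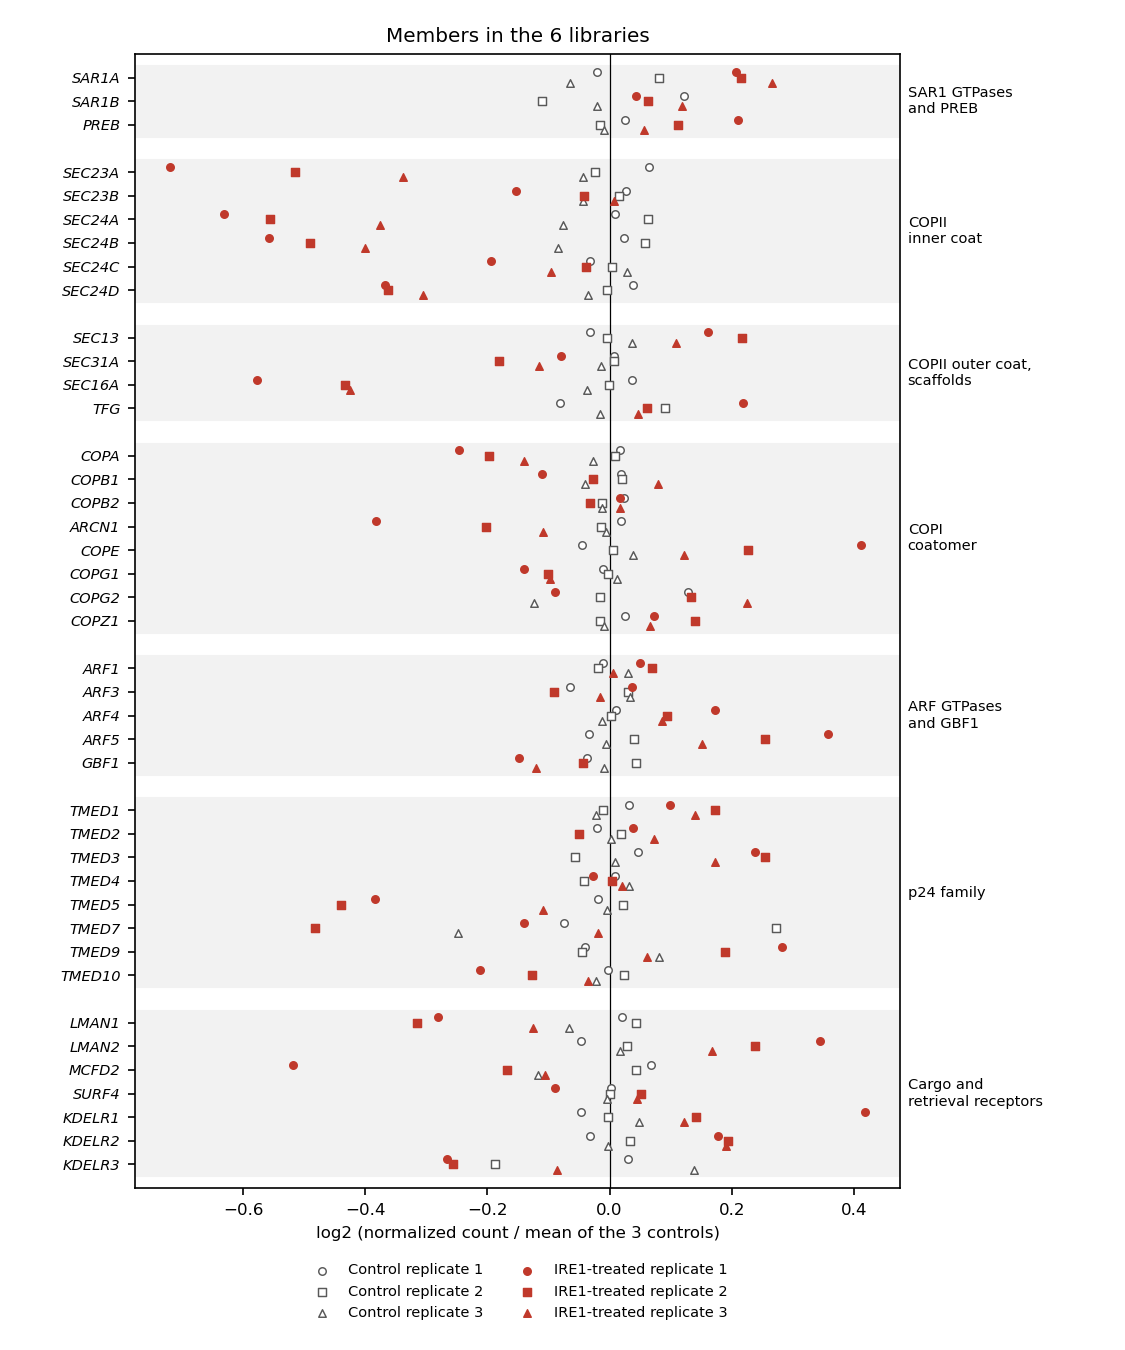
Each library's normalized count of the 41 genes, as log2 of its ratio to the mean of the 3 controls (x axis), with controls as open and IRE1-treated libraries as filled symbols, 1 symbol shape per replicate number. SEC23A, SEC24A, SEC24B, SEC24D and SEC16A show all 3 IRE1-treated libraries well to the left of the controls, and COPE, ARF5, LMAN2 and KDELR1 show them to the right.

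The inner coat of COPII held the lowest values. Of its 6 genes, 4 had lower counts and none higher, with a median log2 fold change of -0.41. SEC23A (ENSG00000100934, chromosome 14, 39501123 to 39578850), the subunit that stimulates GTP hydrolysis by SAR1, had 629.5, 592 and 583 normalized counts in control replicates 1, 2 and 3 and 365, 421 and 476 in IRE1-treated replicates 1, 2 and 3. Every IRE1-treated library lay below every control, at a mean of 69.9% of that of the controls. SEC23A thus had a log2 fold change of -0.51 (SE 0.0879, edgeR adjusted p = 0.000958). SEC24 proteins bind the export signals of cargo. SEC24A (ENSG00000113615, chromosome 5, 133984475 to 134063599) had 1888, 1961 and 1780.2 normalized counts in the controls and 1210.5, 1276 and 1445 after IRE1, again with no overlap, and its log2 fold change was -0.52 (SE 0.0648, edgeR adjusted p = 0.000131). SEC24B (ENSG00000138802, chromosome 4, 110354928 to 110462052) went from 670.1, 686 and 621 to 448, 469 and 499, a log2 fold change of -0.48 (SE 0.0727, edgeR adjusted p = 0.000403). The IRE1-treated libraries of SEC24B were all lower than the controls. In SEC24D (ENSG00000150961, chromosome 4, 119643978 to 119759838) the controls had 3438, 3335 and 3266 and the IRE1-treated libraries 2592, 2602 and 2708, so that the treated libraries were low and close together. SEC24D was at a log2 fold change of -0.35 (SE 0.0473, edgeR adjusted p = 0.000223).

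The paralogs SEC23B and SEC24C did not pass the threshold. SEC23B, the more abundant SEC23, was at a log2 fold change of -0.06 (SE 0.0549, edgeR adjusted p = 0.471). SEC24C, the most abundant SEC24, was at -0.11 (SE 0.0499, edgeR adjusted p = 0.137), although its 3 treated libraries were all below the controls. Per kilobase of exon, SEC23A held 15.3 to 16% of the SEC23 level in the controls and 11.2 to 12.8% in the IRE1-treated libraries. SEC24C held 52.7 to 55.1% of the SEC24 level in the controls and 57.9 to 60.7% after IRE1, while SEC24A held 15.8 to 17.1% and 13.1 to 14.7%. SEC24D held 21.3 to 22.3% and 19.6 to 21%, and SEC24B 7.71 to 8.36% and 6.71 to 7.1%, so that these shares did not overlap between the groups. With the canonical transcript as length, SEC23A took 22.1 to 23% of the SEC23 level in the controls and 16.5 to 18.7% after IRE1. On that length SEC24C held 43.4 to 45.8% and 48.5 to 51%, SEC24D 36.3 to 37.7% and 33.8 to 35.8%, SEC24A 12.4 to 13.5% and 10.4 to 11.7%, and SEC24B 5.46 to 5.92% and 4.81 to 5.06%. SEC24C shares 42.8% of its exon length with a gene on the opposite strand, and the strand setting of the counting is not given in the sources used here.

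Of the GTPases that start the COPII coat, SAR1A had higher normalized counts after IRE1. SAR1A (ENSG00000079332, chromosome 10, 71907045 to 71930279) had 672, 721 and 651 normalized counts in control replicates 1, 2 and 3, and replicates 1, 2 and 3 of the IRE1-treated samples had 787, 791 and 819. All 3 treated libraries were higher than the controls, and the log2 fold change was 0.23 (SE 0.0641, edgeR adjusted p = 0.0175). The call of SAR1A was lost without control replicate 1 (edgeR adjusted p = 0.0802), control replicate 3 (0.0799) or IRE1-treated replicate 2 (0.0511). The annotation names 4 pseudogenes of SAR1A, with which its reads could be shared. SAR1B, which has the same role, was at 0.07 (SE 0.064, edgeR adjusted p = 0.445), and PREB at 0.13 (SE 0.0493, edgeR adjusted p = 0.0742). SAR1B and SEC24A overlap at their ends on opposite strands of chromosome 5, over 3.6% of the exon length of SAR1B.

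In the outer coat and the exit site scaffolds, 1 gene was lower and 1 higher. SEC16A (ENSG00000148396, chromosome 9, 139334548 to 139378211), the scaffold of ER exit sites, had 4282, 4170.5 and 4071 normalized counts in the controls and 2798, 3092 and 3108 in the IRE1-treated libraries, a treated mean of 71.9% of the controls. Its groups were far apart, and the log2 fold change was -0.48 (SE 0.0517, edgeR adjusted p = 4.61e-05). SEC13 (ENSG00000157020, chromosome 3, 10334815 to 10362796), an outer coat subunit that is also part of the nuclear pore, had 3793, 3868 and 3979.6 in the controls and 4340.1, 4508 and 4186 after IRE1. The treated libraries of SEC13 were all higher, by a log2 fold change of 0.16 (SE 0.0476, edgeR adjusted p = 0.0222). That call was lost without control replicate 1 (0.115), control replicate 2 (0.103) or IRE1-treated replicate 2 (0.109). SEC31A, its partner in the cage, was at -0.13 (SE 0.0462, edgeR adjusted p = 0.0625) and TFG at 0.11 (SE 0.0587, edgeR adjusted p = 0.197).

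Among the 8 coatomer genes, 2 were lower and 1 higher. COPA (ENSG00000122218, chromosome 1, 160258384 to 160313356), the alpha subunit that binds retrieval signals, had 11685, 11616 and 11328 normalized counts in the controls and 9729, 10061 and 10475 in the IRE1-treated libraries. All treated libraries of COPA were below the controls, by a log2 fold change of -0.19 (SE 0.0457, edgeR adjusted p = 0.00684), and the call was lost without control replicate 2 (0.0527). ARCN1 (ENSG00000095139, chromosome 11, 118443105 to 118473748), the delta subunit, had 10931, 10688 and 10750.3 in the controls and 8274, 9374 and 10001 after IRE1. Replicate 1 was the lowest of its treated libraries. The log2 fold change of ARCN1 was -0.23 (SE 0.0586, edgeR adjusted p = 0.0117), -0.15 without IRE1-treated replicate 1 (0.00522) and not past the threshold without control replicate 1 (0.0634). COPE (ENSG00000105669, chromosome 19, 19010323 to 19030196), the epsilon subunit, went from 7438, 7702 and 7883 to 10208, 8985 and 8356, with replicate 1 the highest. For COPE the log2 fold change was 0.26 (SE 0.0616, edgeR adjusted p = 0.00743), and the call was lost without control replicate 1 (0.0545). The other 5 subunits, COPB1, COPB2, COPG1, COPG2 and COPZ1, ranged from -0.11 (COPG1) to 0.10 (COPG2) and did not pass. Per kilobase of exon, COPE made up 28.4 to 30% of the summed coatomer level in the controls and 32 to 38.8% in the IRE1-treated libraries, while ARCN1 made up 28.1 to 28.8% and 21.7 to 26.4%. With the canonical transcript as length, COPE made up 37.2 to 39% and 41.1 to 47.8%, and ARCN1 15.1 to 15.5% and 11 to 13.9%.

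Of the ARF GTPases and their exchange factor, ARF5 alone passed the threshold. ARF5 (ENSG00000004059, chromosome 7, 127228440 to 127231754), which acts on early Golgi membranes, had 2306, 2425 and 2349 normalized counts in control replicates 1, 2 and 3, and 3024, 2816 and 2623 in the corresponding order after IRE1. The treated libraries were all higher, and the log2 fold change was 0.26 (SE 0.0555, edgeR adjusted p = 0.00414). ARF5 shares 16% of its exon length with FSCN3 on the same strand and 22.2% with GCC1 on the other. ARF1, ARF3, ARF4 and GBF1 lay between -0.10 (GBF1) and 0.12 (ARF4). ARF1 made up 60.1 to 61.3% of the ARF level per kilobase in the controls and 57.6 to 59.7% after IRE1, and ARF5 18.9 to 19.8% and 20.8 to 22.6%.

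The p24 family held 1 lower and 2 higher genes among 8. TMED5 (ENSG00000117500, chromosome 1, 93615299 to 93646073) had 793, 816 and 801 normalized counts in the controls and 615, 593 and 745 in the IRE1-treated libraries. Replicates 1 and 2 were low and replicate 3 was nearer to the controls, and the log2 fold change was -0.30 (SE 0.0791, edgeR adjusted p = 0.0131). The call of TMED5 was lost without control replicate 2 (0.0611) or IRE1-treated replicate 2 (0.0851). TMED3 (ENSG00000166557, chromosome 15, 79603454 to 79719774) went from 3229, 3006 and 3146 to 3686, 3732 and 3523, with every treated library above the controls. Its log2 fold change was 0.22 (SE 0.0486, edgeR adjusted p = 0.00445). TMED9 (ENSG00000184840, chromosome 5, 177019204 to 177024243) had 6598, 6574 and 7173 in the controls and 8249, 7733 and 7079 after IRE1, and its groups overlapped, since IRE1-treated replicate 3 was below control replicate 3. For TMED9 the log2 fold change was 0.18 (SE 0.0575, edgeR adjusted p = 0.0337), lost without control replicate 1 (0.149), control replicate 2 (0.161) or IRE1-treated replicate 2 (0.11). TMED1, TMED2, TMED4, TMED7 and TMED10 did not pass, at log2 fold changes from -0.20 (TMED7, SE 0.147) to 0.14 (TMED1, SE 0.0599). TMED7 shares 20.0% of its exons with the readthrough gene TMED7-TICAM2, and TMED1 shares 48.3% with DNM2 on the opposite strand.

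Among the receptors, the pair LMAN1 and MCFD2 was lower, and LMAN2 and 2 KDEL receptors were higher. LMAN1 and its partner MCFD2 together export coagulation factors from the ER. LMAN1 (ENSG00000074695, chromosome 18, 56995055 to 57026497) had 10314, 10479 and 9709.7 normalized counts in control replicates 1, 2 and 3 and 8371, 8174 and 9318 in IRE1-treated replicates 1, 2 and 3, without overlap. Its log2 fold change was -0.24 (SE 0.0544, edgeR adjusted p = 0.00584), lost without control replicate 2 (0.0504). MCFD2 (ENSG00000180398, chromosome 2, 47129009 to 47168994) had 1649, 1622 and 1450.5 in the controls and 1099, 1400.5 and 1463 after IRE1, where replicate 3 was above control replicate 3. The log2 fold change of MCFD2 was -0.25 (SE 0.0844, edgeR adjusted p = 0.0431), -0.14 without IRE1-treated replicate 1 (0.0915), and it was also lost without control replicate 1 (0.178), control replicate 2 (0.149) or IRE1-treated replicate 2 (0.0741). MCFD2 shares 12.2% of its exon length with genes on the opposite strand, among them TTC7A. LMAN2 (ENSG00000169223, chromosome 5, 176742806 to 176778841), a lectin of the early secretory pathway, went from 8092, 8532 and 8461 to 10618, 9867 and 9389.7. All treated libraries of LMAN2 were higher than the controls, by a log2 fold change of 0.25 (SE 0.0513, edgeR adjusted p = 0.00283).

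KDELR1 (ENSG00000105438, chromosome 19, 48885832 to 48894808), the most abundant of all 41 genes, had 25540.5, 26349 and 27281 normalized counts in the controls and 35277, 29126 and 28706 in the IRE1-treated libraries. Its groups did not overlap, but replicate 1 was far above the other treated libraries. KDELR1 had a log2 fold change of 0.23 (SE 0.0655, edgeR adjusted p = 0.0181), 0.13 without IRE1-treated replicate 1 (0.00832) and not past the threshold without control replicate 1 (0.0985) or control replicate 2 (0.0763). KDELR2 (ENSG00000136240, chromosome 7, 6485584 to 6523821) had 2093, 2192 and 2138 in the controls and 2422, 2449 and 2442 after IRE1, so that its treated libraries lay very close together and above the controls. The log2 fold change of KDELR2 was 0.19 (SE 0.0471, edgeR adjusted p = 0.00996), lost without control replicate 1 (0.0677). KDELR1 made up 95.3 to 95.5% of the summed KDEL receptor level per kilobase in the controls and 95.2 to 96.1% after IRE1. SURF4 did not pass the threshold, at a log2 fold change of 0.00 (SE 0.0481, edgeR adjusted p = 0.972).

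IRE1-treated replicate 1 carried the largest distance from the control mean in 25 of the 41 members and in 13 of the 19 that passed. The 10 lower members had a median log2 ratio to the control mean of -0.45 in replicate 1, -0.4 in replicate 2 and -0.22 in replicate 3, and the 9 higher members of 0.28, 0.22 and 0.15. Without replicate 1, 10 members were lower and 9 higher, beside 11.4% lower and 9.8% higher over all genes of that fit. Among the lower ones, MCFD2 was lost (edgeR adjusted p = 0.0915) and SEC31A was new (-0.14, 0.0124). Leaving out control replicate 1 or 2 or IRE1-treated replicate 2 moved the counts of calls more, among the members and among all genes. Without control replicate 1, 8 members were lower and 3 higher (all genes 6.68% and 4.88%), without control replicate 2 6 and 6 (6.82% and 4.38%), and without IRE1-treated replicate 2 8 and 6 (7.42% and 6.09%). They were 10 and 8 without control replicate 3 (9.28% and 6.46%) and 11 and 10 without IRE1-treated replicate 3 (15.3% and 14.4%). Calls held in each of the 6 fits without 1 library for 5 lower members (SEC23A, SEC24A, SEC24B, SEC24D and SEC16A) and 3 higher members (ARF5, TMED3 and LMAN2). The share of all tested genes whose calls held in this way was not counted.

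The members differ in transcript length, and the fold change moved with it. The lower members were mostly long transcripts, such as SEC16A (9018 bases in its canonical form), SEC24A (6389) and TMED5 (5789), and the higher ones mostly short, such as ARF5 (1032), COPE (1131) and SEC13 (1359). Among the 13 members under 2000 bases none was lower and 6 were higher. Among the 13 members from 2000 up to 4000 bases 2 were lower and 2 higher, and among the 15 of 4000 bases or more 8 were lower and 1 higher. Over the tested protein-coding genes, 7 were lower and 986 higher of 2881 under 2000 bases, and 1536 lower and 100 higher of 4909 with 4000 bases or more. Of the 4435 from 2000 up to 4000 bases, 167 were lower and 298 higher (3.77% and 6.72%). The members of that class had 15.4% lower and 15.4% higher, from 2 genes each of 13. The 2 lower ones, SEC23A (3843 bases) and ARCN1 (3994), lay near the upper end of the class. Under 2000 bases, 46.2% of the members and 34.2% of the protein-coding genes were higher. At 4000 bases or more, 53.3% of the members and 31.3% of the protein-coding genes were lower, and 6.67% and 2.04% were higher. Spearman's rho between log2 fold change and canonical length was -0.71 across the 41 members and -0.64 across the 12225 protein-coding genes, which are not independent replicates and share the same 6 libraries. With GC content it was 0.53 and 0.25. In the fit that removes a trend with both, rho with length was still -0.35 across the members and -0.06 across the protein-coding genes, and with GC content 0.35 and 0.02. SAR1A (5902 bases) and SAR1B (6517 bases) stood above the other long members.

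**Figure D3:**
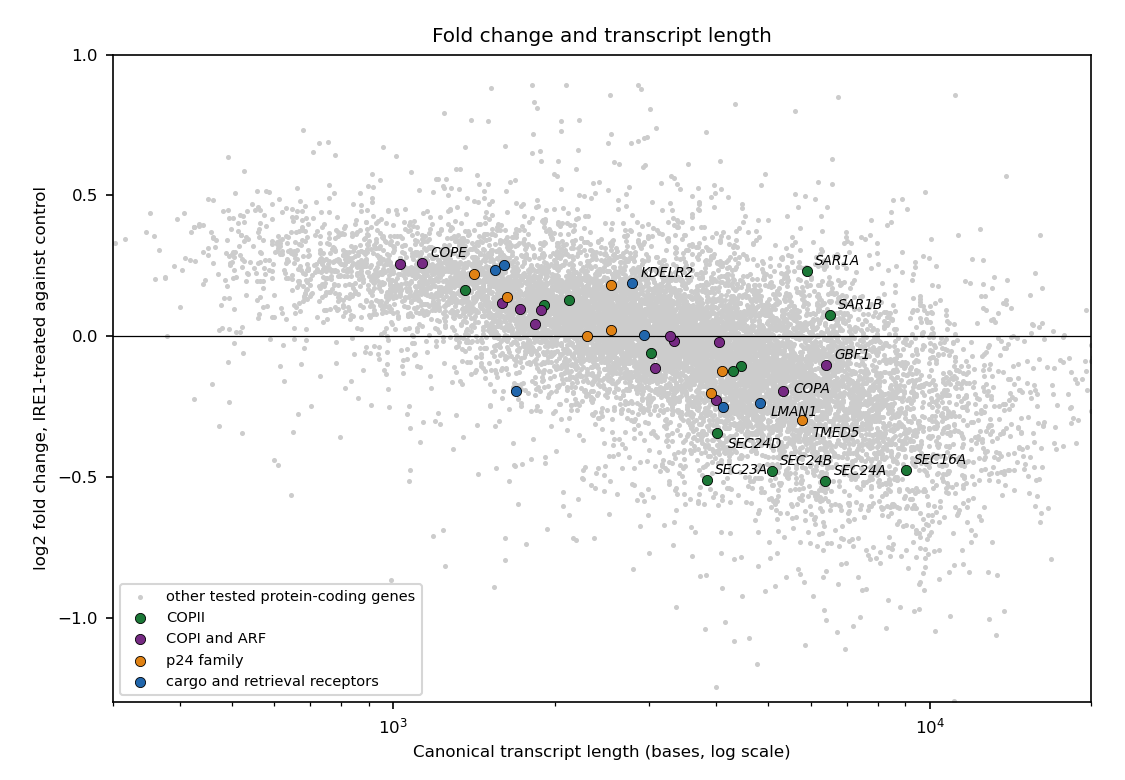
Log2 fold change of IRE1-treated against control samples (y axis) by the length of the canonical transcript in bases (log x axis), for the 41 members (coloured by function) over the tested protein-coding genes (grey, of which 40 lie outside the axes). The members follow the downward slope of the grey cloud, with SEC23A, SEC24A, SEC24B, SEC24D and SEC16A at its lower side and SAR1A and SAR1B above it.

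When each library's smooth trend with the length and GC content of transcripts was removed before the test, 7 members were lower and 4 higher. The lower ones were SEC23A (-0.42, edgeR adjusted p = 0.00171), SEC24A (-0.31, 0.000531), SEC24B (-0.34, 0.00221), SEC24D (-0.27, 0.000428), SEC16A (-0.26, 0.000736), ARCN1 (-0.15, 0.0458) and COPG1 (-0.12, 0.0378). The higher ones were SAR1A (0.40, edgeR adjusted p = 0.00043), SAR1B (0.29, 0.00672), LMAN2 (0.13, 0.0389) and KDELR2 (0.18, 0.0104). COPG1 and SAR1B had not passed in the TMM fit, where they were at -0.11 and 0.07. The trend used the length of the canonical transcript, and gene counts do not show which transcripts H929 expressed. COPA, TMED5, LMAN1 and MCFD2 among the lower members and SEC13, COPE, ARF5, TMED3, TMED9 and KDELR1 among the higher members no longer passed, each with its direction kept. COPA moved from -0.19 to -0.06 (edgeR adjusted p = 0.281) and LMAN1 from -0.24 to -0.08 (0.167). SEC13 moved from 0.16 to 0.01 (0.906) and KDELR1 from 0.23 to 0.10 (0.256). Over all tested genes this fit called 653 lower and 845 higher (4.54% and 5.87%). The part of length in these differences was not tested beyond this fit. SEC23A, SEC24A, SEC24B, SEC24D and SEC16A were lower at an adjusted p under 0.05 in each of the 15 alternative fits, and no higher member passed in each of them. How many of all tested genes kept a call in every fit was not counted.

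**Figure D4:**
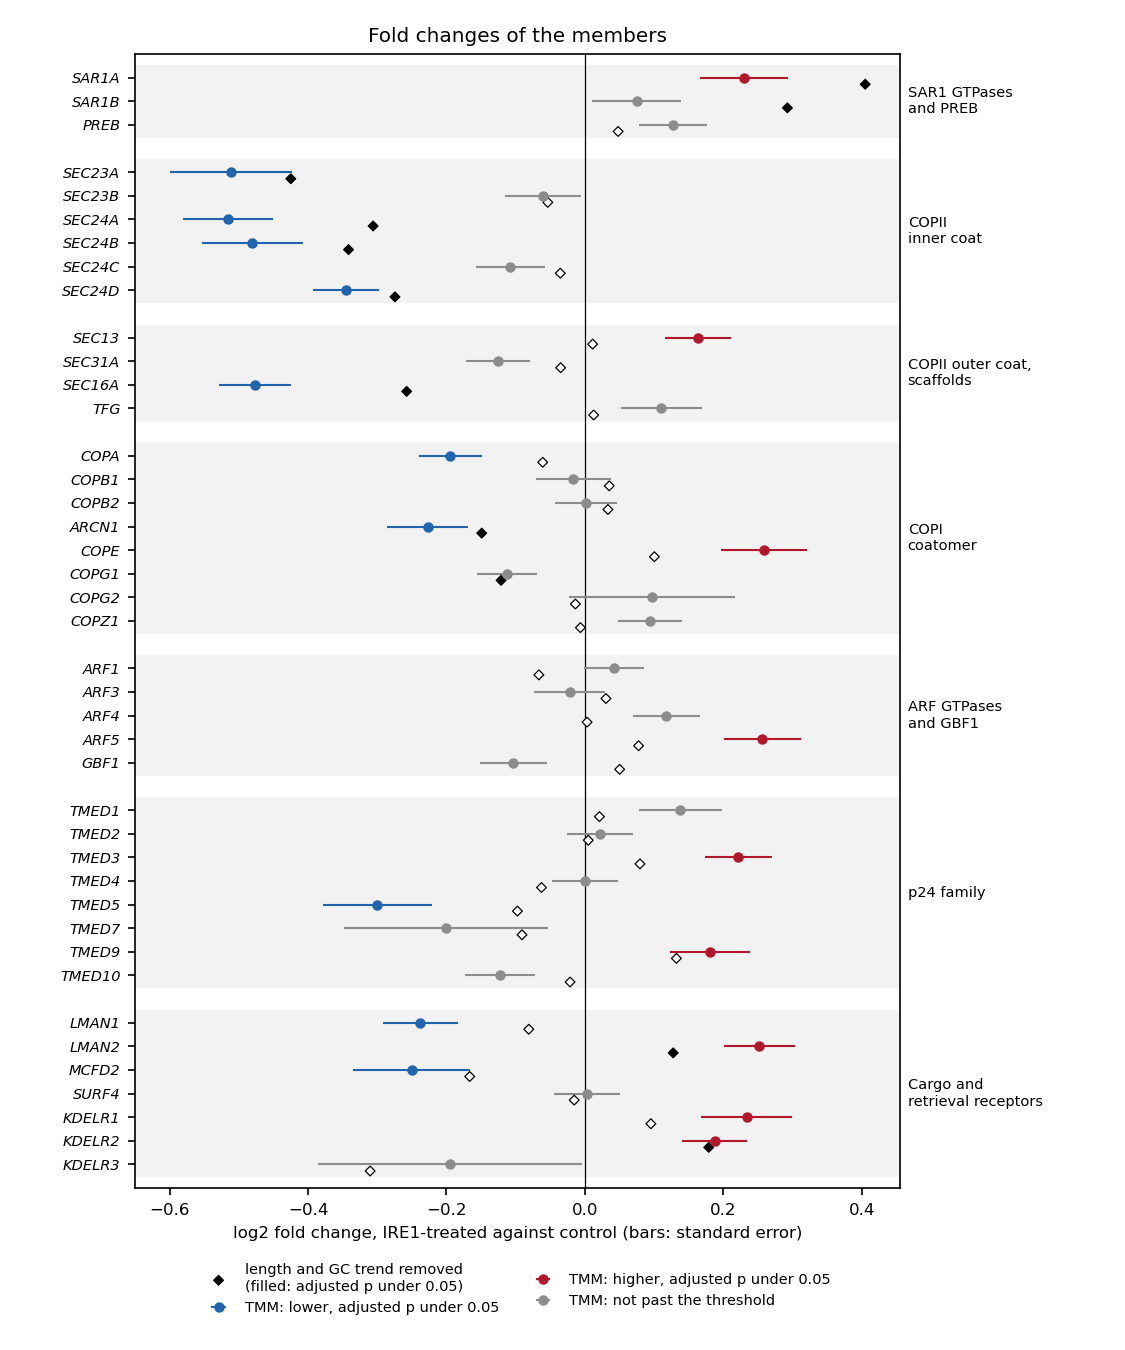
Log2 fold change of IRE1-treated against control samples (x axis) for the 41 genes by function. Circles with bars give the TMM fit and its standard error, coloured blue (lower), red (higher) or grey (not past an adjusted p of 0.05), and diamonds the fit with the length and GC trend removed, filled where it passed. Blue circles with filled diamonds mark SEC23A, SEC24A, SEC24B, SEC24D, SEC16A and ARCN1, and most red circles have an open diamond nearer to 0.

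A wider list of 59 other genes of ER to Golgi transport, of which 58 were tested (TMED6 did not pass the filter), held 8 lower and 11 higher genes at the same threshold, with a median log2 fold change of 0.02. The background share given above was 12.4% lower and 10.3% higher. The 4 lowest were ARFGEF2 (-0.61, SE 0.0881, edgeR adjusted p = 0.000306), TMED8 (-0.53, SE 0.0709, 0.00018), ARFGEF1 (-0.42, SE 0.0687, 0.000658) and TRAPPC8 (-0.38, SE 0.0903, 0.00758). ARFGEF1 and ARFGEF2 are exchange factors for ARF at the trans side of the Golgi, and TRAPPC8 belongs to a TRAPP tethering complex. The 4 highest were TRAPPC6A (0.35, SE 0.0712, edgeR adjusted p = 0.00284), USE1 (0.31, SE 0.0623, 0.00258), TRAPPC1 (0.28, SE 0.0748, 0.0153) and ERGIC3 (0.26, SE 0.0595, 0.00546). USE1 is a SNARE for vesicles returning to the ER, TRAPPC1 and TRAPPC6A are small TRAPP subunits, and ERGIC3 cycles between the ER and the intermediate compartment. The calls of TRAPPC8 (0.0675) and TRAPPC1 (0.0809) were lost without control replicate 1, and that of TRAPPC1 also without control replicate 2 (0.0575). By function, the 9 accessory genes of COPI and ARF held 3 lower and none higher, the 15 of COPII 3 higher and none lower, the 13 SNAREs and fusion factors 1 lower and 3 higher, and the 21 tethers and RAB GTPases 4 lower and 5 higher. With the length and GC trend removed, 5 of the 58 were lower and 3 higher, and these were largely other genes. Of the 8 lower genes 3 passed again (ARFGEF1, ARFGEF2 and TMED8), and PDCD6 and YIF1A were new. None of the 11 higher genes passed again, and the 3 that did were CNIH4, ERGIC2 and RAB2A, which are named for this count after their values were seen. The calls of TRAPPC8 (0.125), TRAPPC6A (0.146), USE1 (0.318), TRAPPC1 (0.525) and ERGIC3 (0.135) were thus lost.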

How the data were processed

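Total RNA of the H929 line was sequenced after incubation with or without recombinant IRE1 (3 libraries each). The series' design text calls the RNA samples biological replicates without saying how their cultures differed, so p-values measure the spread between these samples. According to the methods and the submitters' processing notes, reads were trimmed with Cutadapt 1.12, aligned to GRCh37 (hg19) with STAR 2.5.3a and counted per Ensembl gene with HTSeq 0.6.1p1. Strand setting and overlap mode are not given in the sources used here. The authors deposited the raw counts of each library, and these counts carry the main results. They also deposited a CPM table of 12558 genes made with edgeR 3.24.3, used in 1 alternative only. HTSeq's summary lines, 21.4 to 23.2% of all counts in the files, name no gene and entered neither library sizes nor tests.

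Counts of the 14398 genes that passed edgeR's filter (of 24945 with a count) were scaled with TMM and tested in 1 fit of all 6 libraries with edgeR 4.0.16 (R 4.3.3, quasi-likelihood test), Benjamini-Hochberg adjustment over all tested genes and a threshold of 0.05. The study's own exon test needs exon counts, which were not used here. Each standard error (SE) of an edgeR fit is the size of the log2 fold change divided by the square root of its F statistic. Depth enters through the counts in the fit, and no interval of a single count is printed. Members and gene lists were chosen with earlier results of these data known, so they are not independent of them. The genes given in every library are the members past the threshold and those with the highest and lowest control level. Of the other pathway genes, the 4 lowest and 4 highest past the threshold are named. Names, positions, lengths and sequences came from GENCODE 44 lifted to GRCh37, which names 55538 of the 57905 identifiers, and SEC12 was taken as a synonym of PREB from the RefSeq gene table. SEC22B was not analysed here, since its identifier in that annotation matched no row. Motif sites were folded with ViennaRNA 2.7.2. Alternatives were DESeq2 1.42.0, library size, upper quartile scaling, no filter, at least 10 counts in every library, limma 3.58.1 on log2 of the CPM (pseudocount 1), a block for the replicate number, removal of a loess trend (span 0.5) with canonical transcript length and GC content, that trend with the block, and leaving out each of the 6 libraries. The fits and the motif search were run on simulated data as a check of the code only. The simulated counts used the dispersion that the fit had estimated, and the motif negatives were CUGCAG between runs of A. These runs thus do not show how well the methods hold for the real data. Python 3.11.15, scipy 1.17.1 and matplotlib 3.10.9 were used for tables and plots.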

Additional observations from a re-analysis of the deposited data

How the results depend on the processing

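The 10 lower and 9 higher members kept their direction under each of the 15 alternative fits. With limma on the CPM, DESeq2, upper quartile scaling, a minimum of 10 counts in every library or no filter, each of these 19 passed the threshold again. Removal of the length and GC trend moved the lower and higher genes to 653 and 845 (540 and 747 with the replicate block added), the higher members to 4 (with the block 6 lower and 3 higher members), and the other pathway genes to 5 and 3 (4 and 3), of which 3 lower and none of the higher were called before in either fit. Library size alone gave 2596 lower and 683 higher genes, 4 higher members, 5 higher other pathway genes and a median of the members of -0.0755. With 1 library left out, the ranges were 972 to 2221 lower genes, 638 to 2091 higher genes, 6 to 11 lower members, 3 to 10 higher members, and 4 to 12 and 5 to 14 other pathway genes. Deviations from the group mean were not positively correlated between same-numbered samples (-0.0358, -0.00505 and -0.112), beside -0.0595 to 0.0938 for the other pairs. With 3 samples per group, this cannot show that the samples were unpaired. The replicate block gave 10 lower and 7 higher members and 1496 lower and 1117 higher genes. Folding 25 bases on each side left 8 members with a hairpin site (19.5%, beside 24.2% of protein-coding genes), and 7 with the canonical transcripts (17.1%, beside 23.5%). Apart from the alternatives with a trend or another length, the cause of these shifts was not tested. The canonical transcript as length for the control levels, and its fold with 25 bases, were chosen after the data were seen.

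Direction changed only for members near 0 that did not pass in the fits concerned. With library size these were SAR1B (-0.00015), COPB2 (-0.0746), ARF1 (-0.0341), TMED2 (-0.0541) and SURF4 (-0.0713). With the trend removed, and with trend and block, they were COPB1 (0.0352 and 0.0341), COPG2 (-0.0138 and -0.017), COPZ1 (-0.00653 and -0.00708), ARF1 (-0.0665 and -0.0667), ARF3 (0.0304 and 0.0299), GBF1 (0.0502 and 0.0498) and SURF4 (-0.0155 and -0.0174). COPB2 was at -0.0107 with no filter, -0.00041 with at least 10 counts and -6.32e-05 by limma on the CPM. SURF4 was at -0.0083 with no filter and -0.00033 by limma. TMED4 was at 0.00252 by DESeq2 and 0.00271 with upper quartile scaling. With 1 library left out, COPB1 ranged from -0.0623 to 0.0298, COPB2 from -0.00496 to 0.0175, ARF3 from -0.0543 to 0.0114, TMED4 from -0.0204 to 0.0154 and SURF4 from -0.0208 to 0.05001.

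Depth limits KDELR3, with 35 to 61 reads per library, most among the members. Gene counts sum all exons of a gene, so they do not show where along a transcript reads were lost, and levels of members with shared exons (27 of 41) or named pseudogenes (9) may hold reads of other genes.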
